A study of Mus musculus with 20 samples.

Results

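Glutathione transferases are the enzymes described here, through 9 mouse genes that the array's annotation names: Gstm1, Gstm2 and Gstm5 of the mu class, Gstp1 of the pi class, Gsta4 of the alpha class, Gstt1 and Gstt2 of the theta class, Gsto1 of the omega class, and Mgst1, a membrane-bound enzyme. The genes were chosen by name, and every probe set assigned to 1 of them was taken, which gave 14 of the 12422 non-control probe sets on the array and 9 of its 8251 named genes. Gstm5 had 4 probe sets, Gstm1 and Gstm2 had 2 each, and each of the other 6 genes had 1. These enzymes join the tripeptide glutathione to reactive compounds, among them products of lipid oxidation and foreign chemicals, so that the cell can export or further process them. The soluble classes work in the cytosol as pairs of subunits, whereas Mgst1 sits in the membranes of the endoplasmic reticulum and the outer mitochondrial membrane. Many of their genes are known targets of the transcription factor Nrf2, which binds antioxidant response elements.

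The study examined sleep apnea and glucose metabolism in mice with Affymetrix arrays of total RNA, 20 in all. Of these, 12 formed a panel from C57BL-6J mice aged 20 weeks, with brain, heart, lung and muscle each measured after sleep fragmentation, after hypoxia and in a control with neither, 1 array for each tissue and condition. The panel labels give no dose or schedule for the hypoxia or the fragmentation. The other 8 arrays were of subcutaneous adipose tissue from mice aged 12 weeks, in 4 groups of 2 arrays that the titles name Glucose hypoxia, Glucose non-hypoxia, Con hypoxia and Con non-hypoxia. For the hypoxia arrays oxygen fell to 5% from 20.9% over 30 sec and returned to 20% over 30 sec, during 16 hours of each day over 5 days, while the non-hypoxia arrays belong to mice given intermittent room air on the same days. The labels of all 8 adipose arrays name both C57BL-6J mice and C57BL-6J mice that carry the Lep (or LepOb) obesity allele, without saying which array holds which strain, and they do not say what Glucose and Con stand for. No label says whether the arrays of a group came from separate animals or pools, so the p-values below measure a spread that may be in part technical. In adipose it is the spread between the arrays of a group. The panel has 1 array for each tissue and condition. There the spread is what additive terms for tissue and condition leave over, which includes exposure effects particular to a tissue.

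The deposited values are intensities, 1 per probe set. Panel values were all above 0, whereas 17.5% to 21.2% of the probe sets on each adipose array were at or below 0, and the panel and adipose sets were analysed apart. Panel levels below are quantile-normalized intensities, and adipose levels are the deposited ones. Tests were run with limma on log2(intensity + 97.7) in the panel and on log2 intensity with values under a floor of 97.7 set to it in adipose, so that a fold understates the change of a dim probe set. The brain hypoxia array stood apart before normalization, with a median intensity of 1475 against 349 to 411 on the other 11 panel arrays. Of the marker genes, the 4 neuronal ones on the array summed to 27856 to 38101 on the brain arrays and to at most 3826 on any other. Heart muscle markers summed to 24968 to 43411 in heart and also to 10819 to 16993.5 in lung, skeletal muscle markers to 31756 to 36045 in muscle, and adipocyte markers to 32429.6 to 118364 in adipose. Skeletal muscle markers also reached 16918.7 on the lung hypoxia array and 14386 on the brain control array, and adipocyte markers 18823 in heart and 14522.5 in muscle. The 3 liver markers on the array summed to 5251 on the muscle control array, against 726 and 668 on the muscle fragmentation and hypoxia arrays. They summed to 2741 to 4636 in brain. The part of this signal in the differences within muscle was not tested. The adipose arrays also carried skeletal muscle markers, which summed to 14147 to 108298 on Glucose arrays and 52963 to 141781 on Con arrays. The lung marker Sftpb had 7332, 5008 and 4516 on the fragmentation, hypoxia and control arrays of lung and at most 499.8 on the other panel arrays, but Scgb1a1, a protein of airway club cells, was high on the lung fragmentation array (8719.7) and the brain control array (12924) and low on the lung hypoxia and control arrays (384.5 and 314). The 9 lung results tested below were called in all 12 refits that left out 1 panel array, the brain control, lung fragmentation and brain hypoxia arrays among them. Leaving out 1 array cannot test a trait that several lung arrays share, such as the heart muscle markers, and their part in the lung results was not tested.

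All positions are those of the mouse build GRCm38.p6 in RefSeq's annotation. The mu-class genes lie together within 122.12 kb of chromosome 3, Gstm5 at chr3:107895854-107898685, Gstm2 at chr3:107981702-107986420 and Gstm1 at chr3:108012250-108017973. Gstt1 (chr10:75783813-75798584) and Gstt2 (chr10:75831842-75837419) are neighbours within 53.607 kb. Gstp1 lies at chr19:4035411-4037912 and Gsto1 at chr19:47854973-47864790, far apart on chromosome 19, with Gsta4 at chr9:78191966-78209349 and Mgst1 at chr6:138140527-138156755. RefSeq promoter sequences, the 250 bases before an annotated start, were matched by symbol for 7 of the 9 genes, while Gsta4 and Gstt2 had none. Of these, 4 are shown: Mgst1, the gene with the largest lung excess, Gstm2 and Gstm5, close neighbours with opposite lung differences, and Gstp1, the gene with the narrowest range over the panel. They span chr6:138140277-138140526 on the plus strand (Mgst1, the first of its 2 annotated starts), chr3:107986421-107986670 on the minus strand (Gstm2), chr3:107895604-107895853 on the plus strand (Gstm5) and chr19:4037913-4038162 on the minus strand (Gstp1), each read 5′ to 3′ on the strand of its gene. Capitals mark matches on either strand to the motifs named after them.
Mgst1 promoter: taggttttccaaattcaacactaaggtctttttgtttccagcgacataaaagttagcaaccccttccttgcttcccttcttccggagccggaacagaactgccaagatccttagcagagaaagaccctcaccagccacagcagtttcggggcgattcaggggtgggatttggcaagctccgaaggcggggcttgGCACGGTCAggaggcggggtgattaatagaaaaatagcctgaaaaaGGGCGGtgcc
Gstm2 promoter: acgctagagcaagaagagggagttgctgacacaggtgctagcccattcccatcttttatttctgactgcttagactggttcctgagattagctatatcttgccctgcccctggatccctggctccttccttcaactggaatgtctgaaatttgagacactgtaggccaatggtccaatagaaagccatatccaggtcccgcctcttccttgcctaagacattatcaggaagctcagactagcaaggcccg
Gstm5 promoter: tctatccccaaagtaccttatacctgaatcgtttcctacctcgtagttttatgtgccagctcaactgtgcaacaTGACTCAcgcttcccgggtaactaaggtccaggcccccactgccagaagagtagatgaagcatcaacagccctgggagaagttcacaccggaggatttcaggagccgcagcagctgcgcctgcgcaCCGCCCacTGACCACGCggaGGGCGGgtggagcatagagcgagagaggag
Gstp1 promoter: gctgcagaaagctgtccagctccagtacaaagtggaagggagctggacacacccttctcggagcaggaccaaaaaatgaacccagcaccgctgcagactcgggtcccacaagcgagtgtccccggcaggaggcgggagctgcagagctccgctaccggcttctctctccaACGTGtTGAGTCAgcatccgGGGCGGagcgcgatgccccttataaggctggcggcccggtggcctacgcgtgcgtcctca

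The antioxidant response element core (TGACNNNGC) was found in the windows of Mgst1, beginning 56 bases before the start, and of Gstm5, beginning 42 bases before it; 10.16% of the 32851 mouse promoter windows of this length hold it. An AP-1 site (TGACTCA, in 4.463% of windows) was found in Gstm5 at 176 bases and in Gstp1 at 74 bases. The hypoxia response element core (ACGTG, in 16.57%) was found in Gstp1 at 80 bases and at the second start of Gstm1 at 50 bases. GC boxes (GGGCGG, in 32.74%) were found in Mgst1, Gstm5, Gstp1 and Gsto1, and a TATA box (TATAAA, in 12.37%) at the second start of Gstm1 alone among the 9 windows of the members. The window of Gstm2 held none of the 5 motifs, nor did that of Gstt1, which precedes a start at a point inside the annotated span of that gene (window chr10:75797732-75797981, minus strand). In Gstm5 the antioxidant element core lies between a pair of GC boxes and overlaps neither.

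In lung 6 of the 9 enzymes had a probe set called above the mean of the other tissues. Against the mean of brain, heart and muscle, 6 of the 13 probe sets tested in the panel were higher in lung and 3 were lower at an adjusted p under 0.05, where 28.1% of all 7453 probe sets tested were called higher and 33.7% lower. In either direction 9 of the 13 were called, against 61.8% of all. The 6 that were higher are single probe sets of Mgst1, Gstm2, Gstt1, Gsto1, Gstt2 and Gsta4. The 3 that were lower belong to Gstm5, with 2, and Gstm1, with 1. Macrophage markers moved with lung as well, summing to 21998 to 23439.9 on the lung arrays and to at most 7960.1 on the other panel arrays, and B cell markers to 5009 to 8743 against at most 3653; their part in the lung levels was not tested. The 3′ signal of Actb divided by its 5′ signal was 0.0635, 0.0351 and 0.0288 on the fragmentation, hypoxia and control arrays of lung and 0.0343 on the brain hypoxia array, against 0.662 to 1.52 on the other 8 panel arrays; its part in the lung results was not tested either. In such bulk RNA, more cells of a type and more RNA per cell cannot be told apart.

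Mgst1, whose product conjugates glutathione and also reduces lipid hydroperoxides, had intensities of 5535, 8786 and 7480.2 on the fragmentation, hypoxia and control arrays of lung. The same arrays of the other tissues gave 1685, 2284 and 1145 in heart, 1929.6, 873 and 977 in muscle, and 263, 442 and 429 in brain. Every lung array thus lay above every other panel array, and every brain array below every other. The lung difference was 2.83 ± 0.27 on the log2 scale (SE, 3 arrays against 9), a 7.13-fold excess with an adjusted p of 1.39e-05, and it lay between 2.70 and 3.06 when any 1 array was left out. Brain was lower than the mean of the other tissues by a log2 difference of -2.43 ± 0.27 (adjusted p = 3.82e-05). In the order of the 4 tissues, lung was above heart (log2 difference 2.06 ± 0.33, adjusted p = 0.000609) and muscle above brain (1.45 ± 0.33, adjusted p = 0.00451), while heart and muscle did not differ beyond their spread (0.44 ± 0.33, adjusted p = 0.368).

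Gsto1, an omega-class enzyme that reduces dehydroascorbate and is linked to the processing of interleukin-1, had 7593, 9477 and 6563 on the fragmentation, hypoxia and control arrays of lung. Heart followed with 5052, 4519.8 and 4463, muscle with 1174, 1629 and 1866, and brain with 762, 806 and 942. The 4 tissues did not overlap, and each step of this order passed its test: lung above heart by 0.73 ± 0.20 on the log2 scale (adjusted p = 0.0122), heart above muscle by 1.55 ± 0.20 (adjusted p = 0.000435) and muscle above brain by 0.81 ± 0.20 (adjusted p = 0.00723). The step between lung and heart was lost when the lung hypoxia array (adjusted p = 0.0683), the lung fragmentation array (0.0524) or the heart control array (0.0515) was left out. Against the mean of the other 3 tissues Gsto1 was 4.08-fold higher in lung and 2.09-fold higher in heart, and its log2 differences were -1.01 ± 0.16 in muscle and -2.08 ± 0.16 in brain.

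The theta-class enzymes, which accept small halogenated compounds and some peroxides, were both highest in lung. Gstt1 had 1736, 2073 and 1963 on the fragmentation, hypoxia and control arrays of lung, against 618, 658 and 536 in heart, 369.9, 341 and 549 in brain and 294, 78.5 and 375 in muscle. Its lung excess was 4.16-fold (log2 difference 2.06 ± 0.24, adjusted p = 5.23e-05), and muscle was lower than the other tissues by a log2 difference of -1.49 ± 0.24 (adjusted p = 0.000691). Gstt2, its neighbour on chromosome 10, was dimmer, with 1028, 1004 and 876 in lung, 387, 732 and 160.3 in heart, 496, 241 and 144 in muscle and 133, 106 and 135 in brain. The lung arrays of both genes lay above all other panel arrays, but the heart and muscle arrays of Gstt2 spread over several-fold and overlapped. The lung difference of Gstt2 was 1.66 ± 0.28 on the log2 scale, 3.17-fold (adjusted p = 0.000529), and the brain difference -1.36 ± 0.28 (adjusted p = 0.00218).

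Gsta4, an alpha-class enzyme with high activity toward 4-hydroxynonenal, an aldehyde from lipid oxidation, had its highest mean in heart, close to that of lung. It had 809, 1132 and 804 on the fragmentation, hypoxia and control arrays of heart, 677, 1001 and 759 in lung, 299, 521 and 398 in brain and 53.1, 173 and 102 in muscle. Heart and lung overlapped and did not differ beyond their spread (log2 difference 0.15 ± 0.15, adjusted p = 0.410), lung stood above brain (0.86 ± 0.15, adjusted p = 0.000808), and brain above muscle (1.30 ± 0.15, adjusted p = 5.55e-05). Muscle was lower than the mean of the other 3 tissues by -1.93 ± 0.12 on the log2 scale, 3.80-fold (adjusted p = 2.24e-06). On the muscle arrays the 3′ signal of Gapdh divided by its 5′ signal was 0.00899 to 0.264, against 0.136 to 1.15 in heart and 0.821 to 1.60 in lung and brain; the part of this in the muscle results was not tested.

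**Figure D1:**
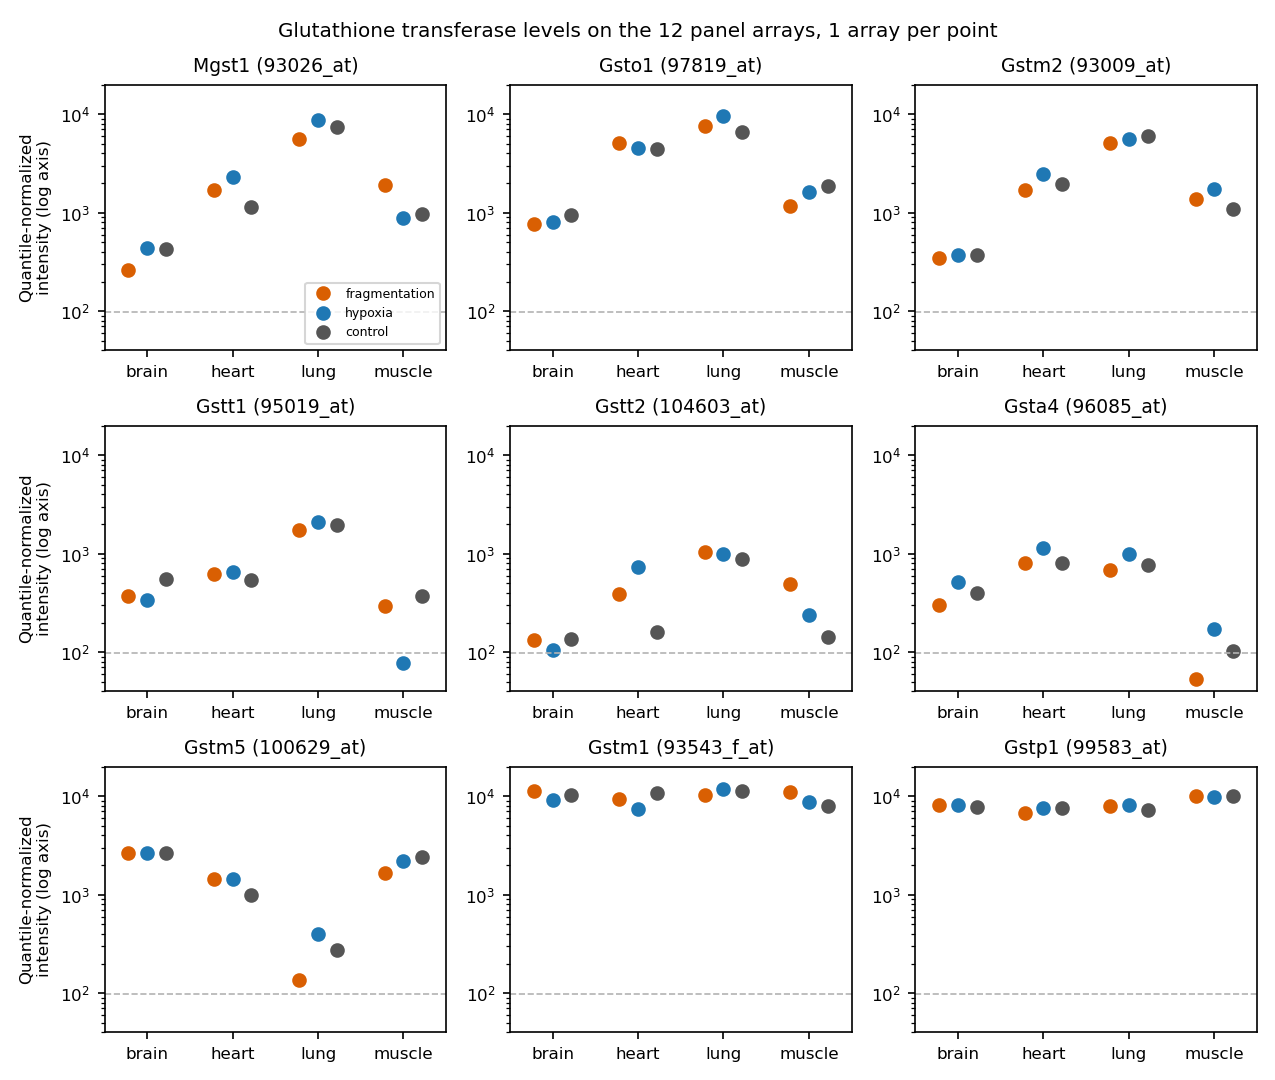
Quantile-normalized intensity (log axis) of 1 probe set per gene on the 12 panel arrays, with 3 arrays per tissue coloured by condition and the dashed line at the offset of 97.7. Lung arrays are the highest for Mgst1, Gsto1, Gstm2, Gstt1 and Gstt2 and the lowest for Gstm5. The Gstm1 set shown, 93543_f_at, and Gstp1 are bright in all 4 tissues, with the muscle arrays highest for Gstp1.

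The mu class was the one with several probe sets per gene, and they did not tell 1 story. Suffixes in the probe set names mark designs that may also bind relatives: sets ending in _f_at share probes with a gene family, and sets ending in _r_at were made under relaxed rules for probe choice. The 3 genes are close relatives, so the level that such a set gives for 1 gene is uncertain. Gstm2 probe set 93009_at had 5091, 5605 and 5958 on the fragmentation, hypoxia and control arrays of lung, 1718, 2469.8 and 1969 in heart, 1391, 1759.8 and 1097 in muscle and 343, 375 and 375 in brain. Lung was 4.97-fold above the mean of the others (log2 difference 2.31 ± 0.14, adjusted p = 1.04e-06) and brain 5.66-fold below it (-2.50 ± 0.14, adjusted p = 3.86e-07). Lung was above heart and muscle above brain (adjusted p = 0.000124 and 2.94e-05), while heart and muscle missed the threshold (0.51 ± 0.18, adjusted p = 0.0583).

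The other Gstm2 probe set, 161357_r_at, followed another order. It had 3989, 150.4 and 1462 in brain, 109.6, 508 and 366 in heart, 2528, 653 and 2359 in lung and 2339.6, 3174 and 4939 in muscle on the fragmentation, hypoxia and control arrays. Arrays of 1 tissue lay far apart, above all in brain, and the tissues overlapped, except that all lung and all muscle arrays lay above all heart arrays. Heart was called 0.44 ± 0.14 higher than the other tissues on the log2 scale by 93009_at (adjusted p = 0.0358) and lower by 161357_r_at (-2.29 ± 0.65, adjusted p = 0.0193). Neither heart call held in every refit: the first was called in 5 of 12 refits without 1 array, with an adjusted p up to 0.144, and the second was lost without the heart control array (0.088) or the heart fragmentation array (0.151).

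Gstm5, a mu-class enzyme known from brain and testis, ran opposite to Gstm2 in lung. Probe set 100629_at had 138, 396 and 276 on the fragmentation, hypoxia and control arrays of lung, against 2677, 2673 and 2619 in brain, 1664, 2194 and 2401 in muscle and 1433, 1449.6 and 1004 in heart. Lung was 5.74-fold lower than the mean of the others, with a log2 difference of -2.52 ± 0.20 (adjusted p = 3.86e-06), and brain was 2.71-fold higher (1.44 ± 0.20, adjusted p = 0.000158). Brain and muscle did not differ beyond their spread (0.35 ± 0.24, adjusted p = 0.245), nor did muscle and heart (0.65 ± 0.24, adjusted p = 0.0757). The family probe set 100630_f_at was brighter, 3455 to 13005 over the panel, and was also lower in lung (-1.05 ± 0.20, adjusted p = 0.00124) and higher in muscle (0.83 ± 0.20, adjusted p = 0.00619, and 0.0569 without the muscle hypoxia array). Probe set 100631_r_at, with 253 to 1979, was called in no tissue, and 161722_f_at, with 41.8 to 356, did not pass the filter on low intensity and was not tested.

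Gstm1, the major mu-class subunit of mouse liver, was bright everywhere through its family probe set 93543_f_at. That set had 11216, 9154 and 10168 in brain, 9454, 7426 and 10775 in heart, 10350.4, 11809 and 11382 in lung and 11061, 8630.1 and 7871 in muscle on the fragmentation, hypoxia and control arrays. The tissues overlapped and no tissue was called, with the 95% interval of the lung difference reaching from -0.10 to 0.58 on the log2 scale. The relaxed set 161633_r_at instead had 933, 702 and 1577 in lung, against 4943, 4266 and 4045 in muscle, 4420.4, 2026 and 3248 in heart and 2541, 2418 and 2253 in brain. It was called lower in lung (-1.56 ± 0.22, adjusted p = 0.000162) and higher in muscle (1.12 ± 0.22, adjusted p = 0.00193).

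**Figure D2:**
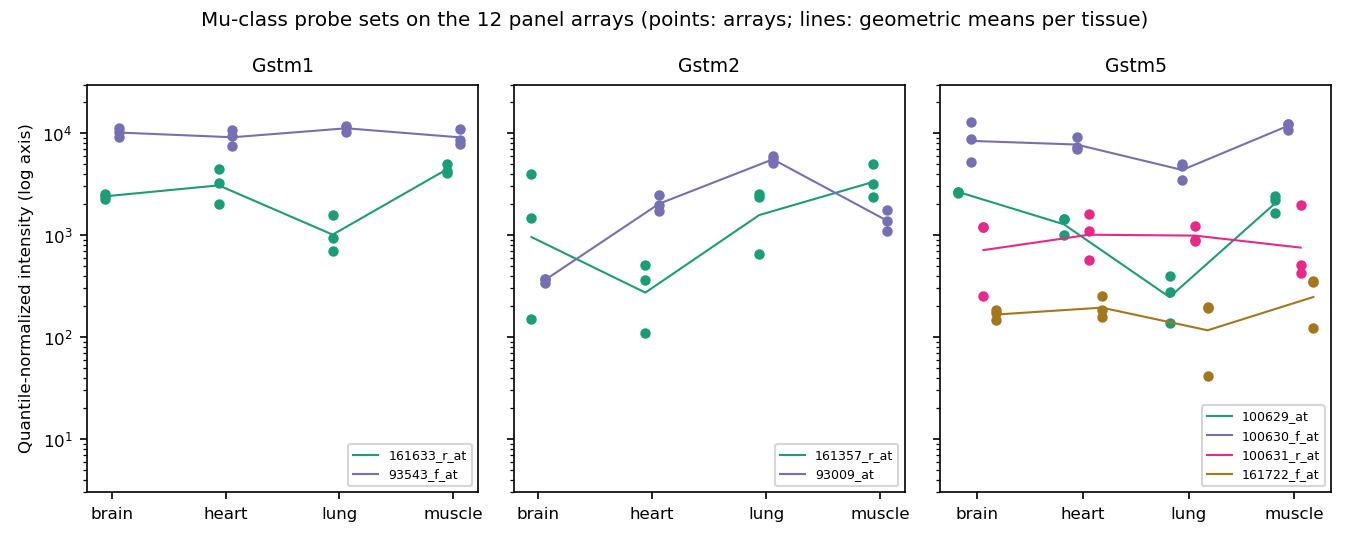
Quantile-normalized intensity (log axis) of the 8 mu-class probe sets by tissue, with each point 1 array and each line joining the geometric means. Probe sets of 1 gene cross: Gstm2 93009_at peaks in lung and is lowest in brain, while Gstm2 161357_r_at is lowest in heart.

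Gstp1, the pi-class enzyme, which is abundant in many epithelia, had the narrowest range over the panel after quantile normalization. It had 9993, 9779 and 10039 on the fragmentation, hypoxia and control arrays of muscle, 8080.1, 8133 and 7840.0 in brain, 7986, 8133 and 7301 in lung and 6774, 7535 and 7535 in heart. Muscle lay above all other panel arrays and was called 1.29-fold higher than the mean of the others (log2 difference 0.37 ± 0.11, adjusted p = 0.0211). That call was lost when the muscle hypoxia, fragmentation or control array was left out (adjusted p = 0.0538, 0.0730 and 0.0846). Neighbouring tissues in its order did not pass the test; muscle and brain, which come first in it, had a brain minus muscle log2 difference of -0.31 (adjusted p = 0.0892), which was -0.70 when arrays were scaled to a common trimmed mean (0.00507) and passed with the trend and robust options of limma (0.0385). Mouse Gstp1 has near-identical neighbours, so its probe set may bind their transcripts too.

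Read over the tissues, the other counts were these. In brain 1 of the 13 probe sets was higher (23.5% of all tested) and 4 were lower (25.9%). In heart 3 were higher (19.1%) and 1 was lower (19.3%), and the total was 2 without the heart control array and 2 without the heart fragmentation array. In muscle 5 were higher (24.9%) and 3 were lower (27.5%), and the total was 5 without the muscle hypoxia array. The higher ones in muscle were the relaxed sets of Gstm1 and Gstm2, both called Gstm5 sets and Gstp1, and the lower ones were Gsta4, Gstt1 and Gsto1. The muscle call of Gstm2 161357_r_at (1.91 ± 0.65, adjusted p = 0.0313) was lost without the heart control (0.0509), lung hypoxia (0.0563), muscle control (0.105) or muscle hypoxia (0.173) array.

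Between pairs of tissues, 9 of the 13 probe sets differed between lung and muscle, where 61.6% of all probe sets did. As many differed between brain and lung (51%) and between heart and lung (52.9%). Brain and heart differed in 6 (45.7%), brain and muscle in 5 (51.6%) and heart and muscle in 5 (24.8%). The heart and muscle count was between 2 and 6 when 1 array was left out: it was 3 without any 1 of the heart arrays or the muscle control array and 2 without the muscle hypoxia array. Gsta4 (log2 difference 2.32, adjusted p = 6.97e-06) and Gsto1 (1.55) were higher in heart than in muscle in that comparison.

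**Figure D3:**
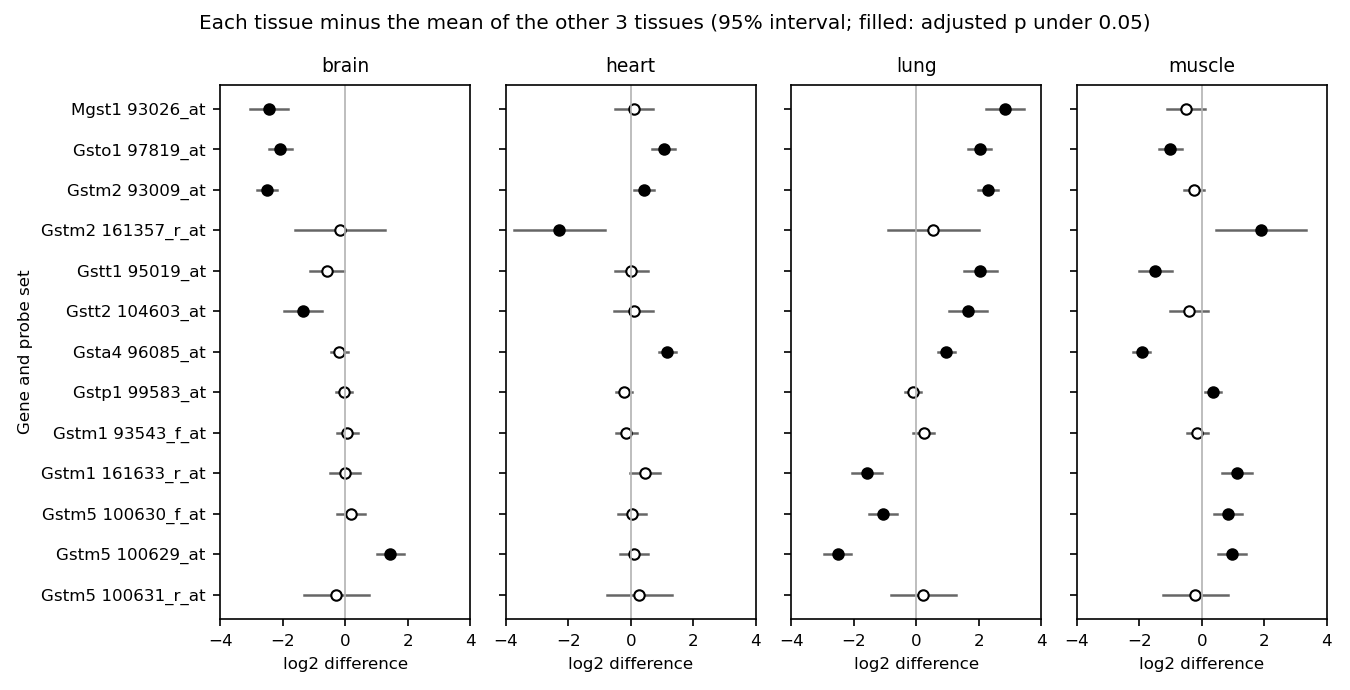
Log2 difference of each tissue from the mean of the other 3 tissues for the 13 probe sets tested, with 95% intervals; filled points have an adjusted p under 0.05. In lung 6 filled points lie right of 0 and 3 left of it.

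No glutathione transferase was called between the exposures over the 4 panel tissues. With 1 array per tissue and condition, the test asks for a change shared by the tissues, and changes particular to 1 tissue fall into its spread. For fragmentation against control 0% of all probe sets were called, as were 0% for hypoxia against control and 0% for hypoxia against fragmentation; at an unadjusted p under 0.05 limma gave 336, 371 and 743 of the 7453 probe sets, and 0, 1 and 2 of the 13. The 1 in hypoxia against control was Gsta4. Its hypoxia array was the brightest of the 3 in all 4 tissues, which held for 2.4% of all probe sets and for 1 of the 13, and Gsta4 is singled out here after its values were seen. The log2 difference was 0.39 ± 0.13 for hypoxia against control (higher in 4 of 4 tissues, limma adjusted p = 0.908) and 0.61 ± 0.13 for hypoxia against fragmentation (limma adjusted p = 0.467). Both kept their sign when any 1 array was left out, at 0.34 to 0.42 and 0.54 to 0.68, and adjusted p-values stayed above the threshold.

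Within single tissues there is 1 array per condition and hence no test, so differences of 2-fold or more are given as sizes. In brain 1 of the 13 probe sets reached 2-fold for fragmentation against control (4% of all) and 2 for hypoxia against control (6.13%). In heart the counts were 1 for fragmentation (4.2%) and 2 for hypoxia (5.98%), in lung 0 (1.69%) and 2 (2.94%), and in muscle 3 (7.92%) and 2 (6.94%). Of these 13 differences, 9 came from Gstm2 161357_r_at and Gstm5 100631_r_at, both of relaxed design, and another from Gstm1 161633_r_at, with 702 on the hypoxia array of lung against 1577 on its control array. The other 3 were in the theta class. Gstt2 was 732 on the hypoxia array of heart against 160.3 on its control array, and 496 on the fragmentation array of muscle against 144. Adipocyte markers summed to 18823 on the hypoxia array of heart against 10869.9 on its control array, and to 14522.5 on the fragmentation array of muscle against 5534; their part in the Gstt2 values was not tested. Gstt1 was 78.5 on the hypoxia array of muscle against 375 on its control array.

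Adipose tissue was set beside the panel through the percentile of a probe set among all non-control probe sets of the same array, a description with no test. Mgst1 was at a median percentile of 98.7 over the 8 adipose arrays (98.4 to 99.0), beside 98.0 in lung, 81.3 in heart, 68.5 in muscle and 47.0 in brain. Gsto1 was at 93.5 in adipose and 98.1 in lung, and Gstm2 93009_at at 85.2 and 96.6. Gstt1 was at 83.6 in adipose, beside 84.4 in lung and at most 56.3 in the other tissues. Gsta4 was low in both adipose (7.12) and muscle (19.4). It was at or below the floor on 6 of the 8 adipose arrays and had 53.1 to 173 in muscle, so the order of these percentiles says little. Gstm5 100629_at was at 70.4 in adipose, between its 77.8 in heart and 37.1 in lung. Gstp1 stood at 96.7 or higher on all 20 arrays, and Gstm1 93543_f_at at 98.0 or higher.

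**Figure D4:**
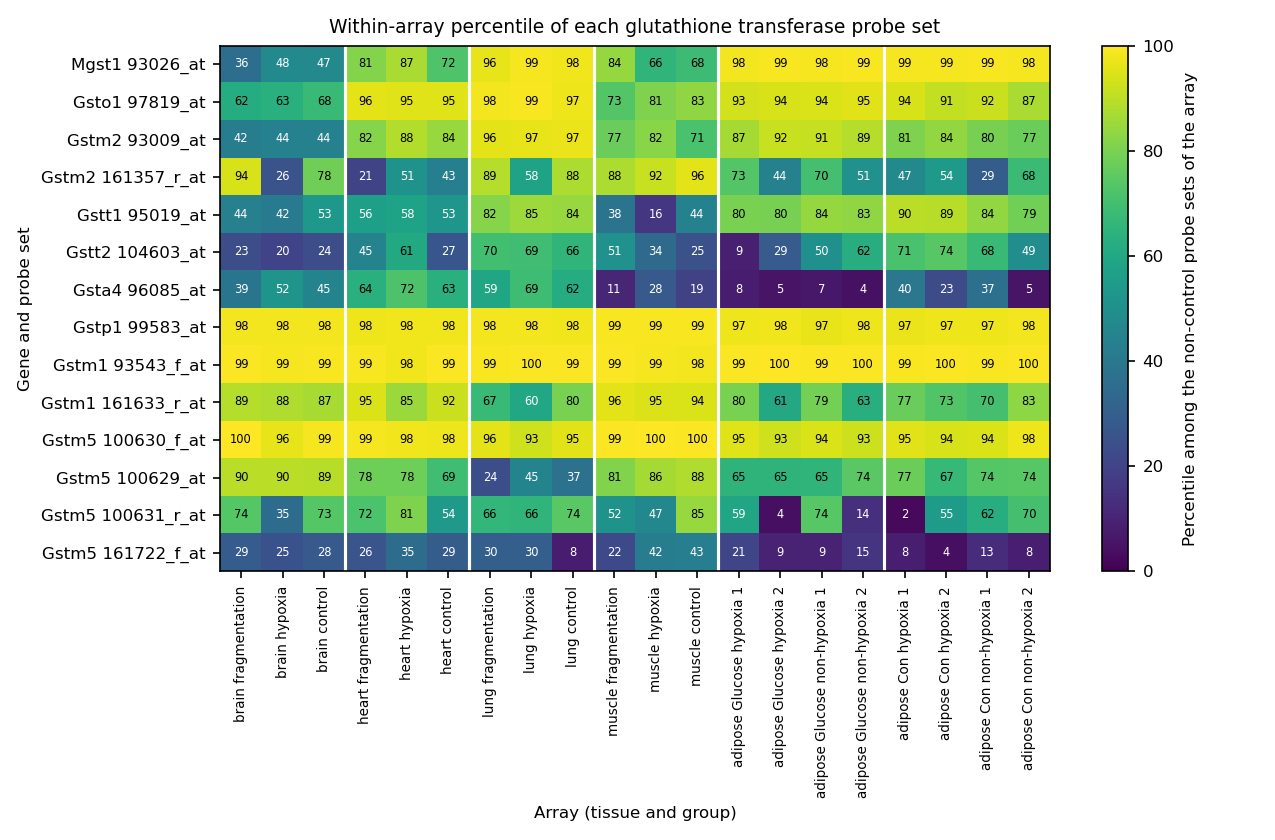
Percentile of each of the 14 probe sets among the non-control probe sets of its array, for 12 panel and 8 adipose arrays (yellow is high). Mgst1 and Gstt1 are close to their lung percentiles in adipose, while Gsta4 is low in adipose and muscle.

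In adipose, 12 of the 14 probe sets passed the filter on low intensity; Gsta4 and Gstm5 161722_f_at did not. Glucose arrays differed from Con arrays in 1 of the 12, Gstt2, which was lower, where 3.54% of the 7453 probe sets were called lower; 0 of the 12 were called higher, where 4.04% were. Gstt2 had -146 and 55.7 on the Glucose hypoxia arrays and 292 and 506 on the Glucose non-hypoxia arrays. The Con hypoxia arrays had 799.7 and 977, and the Con non-hypoxia arrays 683 and 257. Both Glucose hypoxia arrays were at or below the floor, and the Glucose and Con values overlapped. The log2 difference was -1.65 ± 0.36 (adjusted p = 0.0382), and since it was taken with 2 of the 4 Glucose values at the floor it depends on that floor: it was -0.91 with the higher floor (adjusted p = 0.133). The call was kept without the second Con non-hypoxia array or the second Glucose non-hypoxia array, and lost without any 1 of the other 6 arrays (adjusted p = 0.0713 to 0.123). It was -1.37 without both Con arrays numbered 1 (adjusted p = 0.155), and the adjusted p was 0.0617 with the replicate number as a block.

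Gstm2 93009_at had 2045 and 2996 on the Glucose hypoxia arrays and 3116 and 2399 on the Glucose non-hypoxia arrays. The Con hypoxia arrays had 1295 and 1684, and the Con non-hypoxia arrays 1239 and 1134. All 4 Glucose arrays lay above all 4 Con arrays, which held for 1 of the 12 probe sets in this direction and for 11.4% of all; for the opposite direction the counts were 0 of 12 and 8.33%. The log2 difference was 0.98 ± 0.25, 1.97-fold, and its adjusted p of 0.0616 missed the threshold. Within the arrays titled s2 and those titled s4, codes whose meaning the labels do not give, the difference was 0.89 and 1.06, and that of Gstt2 was -1.88 and -1.43. The other Gstm2 probe set, 161357_r_at, did not separate the sides, with 191 to 962 on Glucose arrays and 62.1 to 695 on Con arrays. Its log2 difference of 0.69 was not called, and was -0.16 without both Con arrays numbered 1.

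Markers of some other cell types differed between the Glucose and the Con arrays. The 5 of 6 B cell markers on the array summed to 973 to 1850.3 on Glucose arrays and to 6909 to 10854 on Con arrays, with 1 marker at or below the floor on every Glucose array. All 6 T cell markers summed to 101 to 577 on Glucose and 2665 to 4267 on Con arrays, with 4 of them at or below the floor on every Glucose array. The 6 brown adipocyte markers summed to 949.7 to 2627 on Glucose arrays and 3501 to 84042 on Con arrays, the Con arrays numbered 1 being the highest. The same markers summed to 23150.5 to 27648 in heart and 15082 to 17035 in muscle, so they are not particular to brown fat. Macrophage markers overlapped, with sums of 8456 to 15334 on Glucose and 10155 to 18708 on Con arrays. Adipocyte markers summed to 32429.6 to 80572 on Glucose and 54775 to 118364 on Con arrays. The 3 of 4 liver markers on the array went the other way, with sums of 10489, 12750.3 and 8116 on 3 Glucose arrays and 6.03 on the second Glucose non-hypoxia array, against 399 to 1395 on Con arrays. Gstm2 93009_at was 2045, 2996 and 3116 on those 3 Glucose arrays, listed as above, and 2399 on the second Glucose non-hypoxia array. Its highest value fell on the array with the lowest liver sum of those 3. The part of these cell types in the Gstt2 and Gstm2 93009_at differences was not tested.

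No difference was called for the other members. Mgst1 averaged 11233 ± 3549.97 on Glucose arrays and 12691.5 ± 1799.7 on Con arrays (SD, n = 4 each), with a log2 difference of -0.22 ± 0.30 and a 95% interval from -0.93 to 0.49. Gsto1 averaged 4226 ± 573 on Glucose arrays and 3032 ± 801 on Con arrays, with overlapping values and a log2 difference of 0.51 ± 0.25 (limma adjusted p = 0.279). Gstp1 averaged 7283 ± 1201 on Glucose arrays and 7963 ± 1303 on Con arrays, and Gstm5 100629_at 706 ± 154 and 906 ± 163. Gstm1 93543_f_at was the brightest, at 15677.5 ± 5949.4 on Glucose and 17220.5 ± 3788 on Con arrays. Gsta4 was at or below the floor on all 4 Glucose arrays and on 2 of the 4 Con arrays, the others being 156 and 124.

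Hypoxia against non-hypoxia in adipose gave no call among the 12 probe sets: 0% of all probe sets were called over both sides, 0% within Con, 0% within Glucose and 0% for the difference between these effects. At an unadjusted p under 0.05 limma gave 110, 218, 159 and 246 of the 7453 probe sets in that order, and 0, 1, 1 and 2 of the 12. The theta-class pair differed in opposite directions on the Glucose and the Con side. Gstt1 had 1366 and 1258 on the Glucose hypoxia arrays against 1792 and 1547 on the Glucose non-hypoxia arrays, but 2475 and 2455 on the Con hypoxia arrays against 1612 and 1239 on the Con non-hypoxia arrays. Gstt2, given above, had both Glucose hypoxia arrays below both Glucose non-hypoxia arrays and both Con hypoxia arrays above both Con non-hypoxia arrays. Such opposite moves without overlap on either side were seen in these 2 of the 12 probe sets and in 4.88% of all. The difference between the hypoxia effects, Glucose minus Con, was -3.05 ± 0.73 for Gstt2 and -1.15 ± 0.44 for Gstt1, both with an unadjusted limma p under 0.05, and with an adjusted p of 0.999 neither passed the test over all probe sets.

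**Figure D5:**
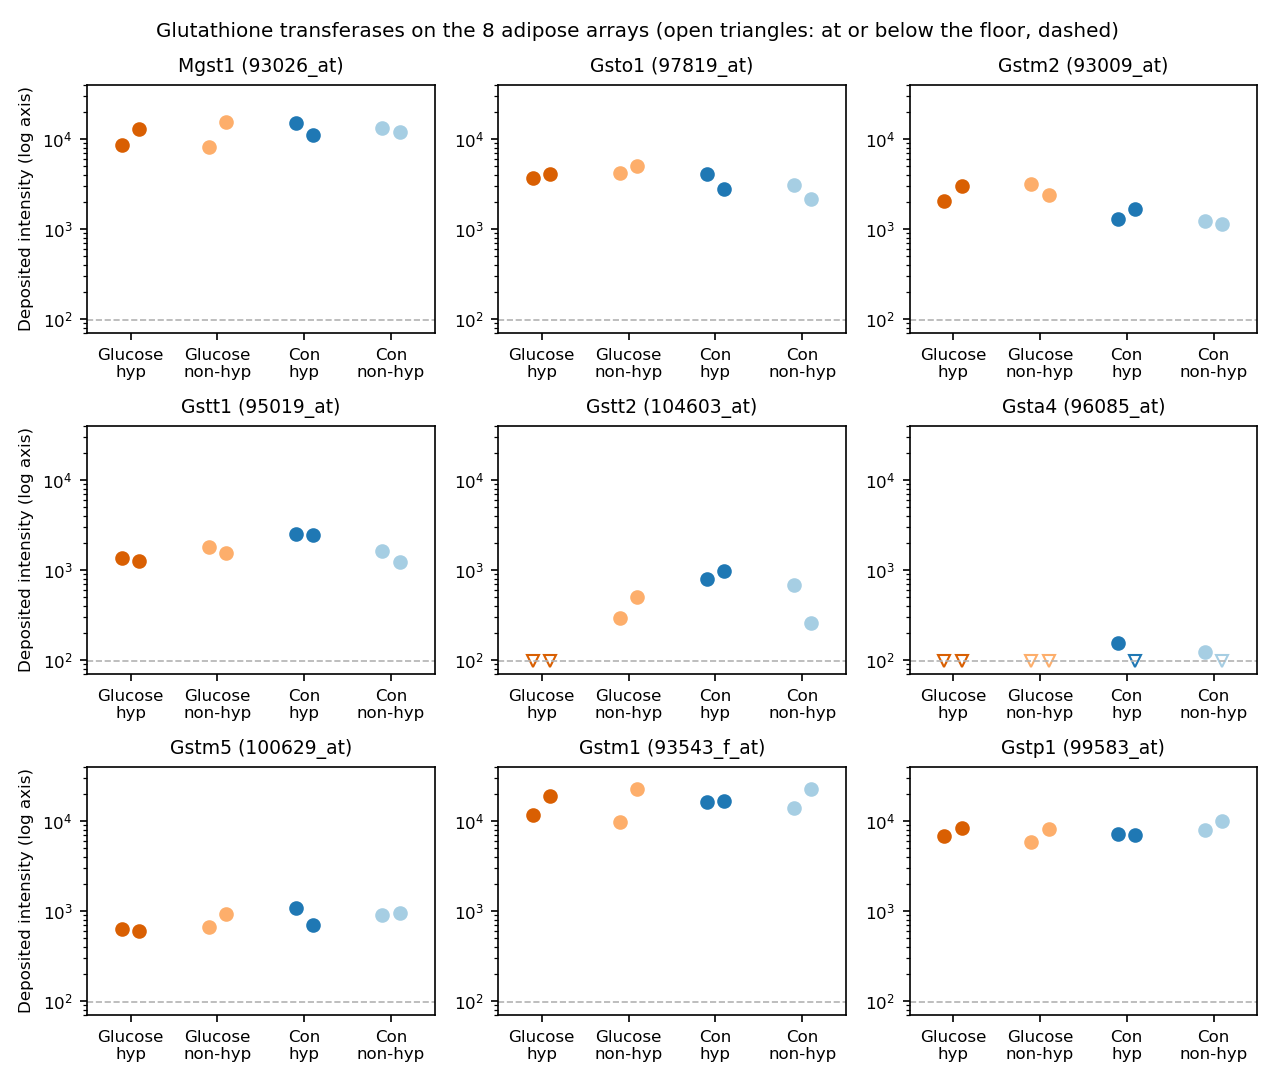
Deposited intensity (log axis) of 1 probe set per gene on the 8 adipose arrays, with 2 arrays per group; open triangles are values at or below the floor of 97.7 (dashed). The Glucose arrays lie above the Con arrays for Gstm2, and both Glucose hypoxia arrays are at the floor for Gstt2.

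Other genes of the pathway were taken from 3 named lists. Beside their counts stand the shares of all probe sets called higher and lower. These were 28.1% and 33.7% in lung, 23.5% and 25.9% in brain, 19.1% and 19.3% in heart, and 24.9% and 27.5% in muscle. Between Glucose and Con adipose they were 4.04% and 3.54%. Of 19 other glutathione transferases and related enzymes, 11 were on the array and 8 were tested in the panel: in lung 2 were higher, led by Gsta3 (1.74 ± 0.25 on the log2 scale, adjusted p = 0.000189), an alpha-class enzyme, and 1 was lower, Mgst3 (-1.68 ± 0.13, adjusted p = 3.72e-06), a microsomal relative of Mgst1. The list's median lung difference was 0.18, against -0.10 over all probe sets tested. In brain 0 were higher and 4 lower, with Gstk1, the kappa-class enzyme of mitochondria and peroxisomes, at -2.02 ± 0.18. In heart 2 were higher, Gstk1 (1.61 ± 0.18) and Mgst3 (1.07 ± 0.13), and 0 lower, and in muscle Mgst3 was higher (1.21 ± 0.13) and Gsta3 lower (-0.77 ± 0.25). Between Glucose and Con adipose 1 of 8 was called, Gsta3, which was higher on the Glucose arrays (1.47 ± 0.23, adjusted p = 0.0112).

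Glutathione itself is made by Gclc with Gclm and by Gss, and is used by the peroxidases of the Gpx family. Of 18 genes for its synthesis, breakdown and recycling, 15 were on the array and 12 were tested in the panel: in lung 6 were higher and 5 lower, with a median of 0.61. Gclc, the catalytic subunit of the first step (1.66 ± 0.16), Anpep, which trims peptides outside the cell (1.59 ± 0.34), and Gpx3, the secreted peroxidase (1.34 ± 0.20), were among those higher in lung. Hagh, a glyoxalase (-0.94 ± 0.14), was among those lower. In brain 2 were higher and 5 lower, in heart 3 and 1, and in muscle 3 and 2. In adipose 13 were tested, of which Gclm was higher (1.02 ± 0.22, adjusted p = 0.0327) and Gpx3 lower (-2.00 ± 0.32, adjusted p = 0.0110) in Glucose than in Con adipose.

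Of 16 regulators and further targets of Nrf2, 13 were on the array and 11 were tested in the panel. In lung 6 were higher and 2 lower, with a median of 1.03 against -0.10 over all probe sets. Ephx1, the microsomal epoxide hydrolase (3.63 ± 0.17), Bach1, a repressor of the same response elements (2.43 ± 0.24), and Nfe2l2, which encodes Nrf2 (1.35 ± 0.14), were higher in lung, whereas Nqo1, a quinone reductase (-1.24 ± 0.18), was lower. In brain 0 were higher and 8 lower, with Ephx1 at -1.54 ± 0.17 and Nfe2l2 at -1.47 ± 0.14. In heart 2 were higher and 4 lower, in muscle 2 and 1, and none of the 10 tested in adipose was called between Glucose and Con, where 1789 of all probe sets had an unadjusted p under 0.05 and 565 were called. None of the 3 lists held a call for fragmentation, for hypoxia or between these in the panel.

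The tissue profiles of single members were set beside those of all genes outside the 9, by the root mean square difference of log2 profiles over the 12 panel arrays after centring each on its own mean. Mgst1, whose own profile spanned 4.62 log2 units, was nearest to Fmo1, a flavin monooxygenase (0.30), and S100a6 (0.32). Gsto1 was nearest to Sox18 (0.30) and Nrp1 (0.31), Gstm2 93009_at to Emp1 (0.26) and Tie1 (0.28), Gstt1 to Col13a1 (0.31) and Serp1 (0.33), and Gstt2 to Timp3 and Map3k6 (0.33 each). Sox18, Nrp1 and Tie1 are known from vascular endothelium, but no endothelial marker list was taken here. A part of these cells in the levels was not tested, and genes about as close were not counted. Gsta4 had no profile as close, the nearest being Ptprm (0.37) and Wwc2 (0.38). Gstp1 and Gstm1, with profiles that spanned 0.56 and 0.66 log2 units, were nearest to Huwe1 (0.09) and Gne (0.14), where closeness says little because any level profile is near.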

How the data were processed

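The deposited values are intensities, 1 per probe set and array, on an Affymetrix mouse array with 12488 probe sets, of which 66 controls were left out. The labels name no summary or scaling method, so the method by which the authors made these intensities is unknown here. A trimmed mean near 800 on 19 of the 20 arrays shows that a scaling had been done; the brain hypoxia array had 2671. No counts lie behind the values, so the number of arrays limits the precision. Panel intensities were quantile normalized and log2(intensity + 97.7) was fitted with limma 3.58.1 in R 4.3.3, with tissue and condition as additive terms (6 residual degrees of freedom). Adipose intensities kept their scaling, values under 97.7 (percentile 20 of all positive values) were set to it, and 4 group means were fitted (4 residual degrees of freedom). Probe sets in the lowest 40 percent of log2 level were left out, which left 7453 in each fit; p-values are two-sided and adjusted by Benjamini-Hochberg over these, with 0.05 as the threshold. The fits were also run on simulated data with planted differences and independent noise. Those data held no exposure effects particular to a tissue, outlying arrays or pools, so the run does not test for such features. Genes were named from GEO's platform annotation: 10833 probe sets had 1 symbol, 396 several and 1193 none. Every probe set of the 9 members is reported, and of the 3 pathway lists up to 4 called genes a contrast were allowed a name. The members, lists and tests were chosen with earlier results of these data known. No 2 arrays held identical values. Alternatives tried were other offsets and floors, another scaling, no filter, limma's trend and robust options, no condition term, blocks, and leaving out arrays.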

Additional observations from a re-analysis of the deposited data

Results flagged for a closer look

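The difference between the hypoxia effects on the Glucose and the Con adipose arrays, Glucose minus Con, was -3.05 ± 0.73 on the log2 scale for Gstt2 and -1.15 ± 0.44 for Gstt1, both with an unadjusted limma p under 0.05 and an adjusted p of 0.999 over 7453 probe sets and 2 arrays per group, so neither passed the test over all of them. For Gstt2 this rests on 2 Glucose hypoxia values at or below the floor.

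In the panel, 2 probe sets of relaxed design moved by over 2-fold in opposite directions in different tissues, with 1 array per condition, so these differences were not tested. Gstm2 161357_r_at differed between the fragmentation and the control array by 1.39 on the log2 scale in brain, -1.16 in heart and -1.05 in muscle. Gstm5 100631_r_at differed between the hypoxia and the control array by -1.88 in brain, 1.36 in heart and -2.00 in muscle.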

How the results depend on the processing

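In the panel, 69 member results were called, and over 18 alternatives 1175 of the 1242 refits kept the call, 67 lost it in 15 results and 0 turned its direction; of the 100 results not called, 14 were called in some refit. Leaving out 1 array, the member calls lay between 2 and 5 in heart (4 with all arrays), 5 and 8 in muscle (8), and 2 and 6 between heart and muscle (5). Scaling to a common trimmed mean in place of quantile normalization gave 8 member calls between brain and muscle (5). Over all probe sets it called 1970 higher and 1837 lower in brain than in muscle, against 1855 and 1994 with quantile normalization. The cause of the change in member calls was not tested. In adipose, the Gstt2 call between Glucose and Con was lost in 10 of 16 refits. The member calls there were 0 without the filter, 2 with limma's trend and robust options, 0 with a replicate block, 0 without both Con arrays numbered 1 (92 probe sets called in all, against 565) and 0 or 1 when 1 array was left out (240 to 459 probe sets); fewer arrays were fitted in the last 2 settings. The second probe set called with trend and robust options was Gstm2 93009_at (adjusted p = 0.0316), which was also called with the higher floor (0.0351). Without the filter, 4 probe sets were called for hypoxia, 2 within Con, 4 within Glucose and 3 for the difference, none of them a member. Deviations of same-numbered adipose arrays correlated at 0.41 between the Glucose groups and 0.18 between the Con groups, but at -0.14 to -0.05 between Glucose and Con groups, so the numbers were not taken as pairs; the block changed no other member call. No depth is known for these arrays.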
